A study of Saccharomyces cerevisiae with 6 samples.

Results

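Stable unannotated transcripts (SUTs) are noncoding RNAs of budding yeast that are made by RNA polymerase II from promoter regions, often on the opposite side of a shared promoter from a protein-coding gene or antisense to one, and that can be detected in wild-type cells. The SUTs described here are the faint ones. They were chosen by measured values, as SUTs with a mean below 4 CPM (counts per 1000000 counts of the library) over the 3 libraries of *RRP4* cells and with at least 30 reads summed over all 6 libraries. The rule found 339 of the 847 SUTs in the count tables (40.0%). Another 452 SUTs were at or above 4 CPM, and 56 were below 4 CPM with fewer than 30 reads.

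The libraries came from haploid *S. cerevisiae* cells labelled as strain BY4742 (*MATα ura3Δ0 leu2Δ0 his3Δ1*) in which the chromosomal *RRP4* gene was deleted (*rrp4Δ::NEO*). The study's strain list gives its *rrp4Δ* strain as *MATa* and adds *lys2Δ0*. The 3 *rrp4-G226D* libraries came from such cells carrying *rrp4-G226D-2xMyc* on a centromeric *LEU2* plasmid (pRS315), and the 3 *RRP4* libraries from cells carrying wild-type *RRP4-2xMyc* on the same plasmid. Both genotypes therefore lacked the chromosomal gene and expressed a Myc-tagged protein from a plasmid in minimal medium without leucine, and both spent 5 h at 37°C before total RNA was sequenced. The substitution models a missense change in human *EXOSC2*, and the comparison asks what happens to the RNAs of cells whose only Rrp4 protein carries it.

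Rrp4 is a cap subunit of the RNA exosome, the conserved complex that trims and degrades RNA from the 3′ end. In the nucleus the exosome works with the exonuclease Rrp6, the helicase Mtr4 in the TRAMP complex and the Nrd1-Nab3-Sen1 complex, which terminates short noncoding transcripts and hands them over for decay. Cryptic unstable transcripts (CUTs) are degraded so fast by this route that they are seen mainly when it fails, whereas SUTs escape it in part and are also degraded in the cytoplasm by decapping and the 5′ to 3′ exonuclease Xrn1. The codon that distinguishes the genotypes is shown in capitals in the coding strand of the chromosomal reference gene (*RRP4*, YHR069C, minus strand of chromosome VIII), where it encodes the glycine (G in G226D) of a protein of 359 residues that the mutant replaces with aspartate. The window is chrVIII:233951-234013 in the RefSeq R64 genome, and the codon lies at 233981 to 233983 within the exon.
RRP4 substituted codon and flanks: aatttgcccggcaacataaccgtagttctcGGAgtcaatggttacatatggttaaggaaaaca

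Library totals ran from 9360608 to 12181979 counts in *rrp4-G226D* cells and from 7663545 to 10601422 counts in *RRP4* cells. Normalised levels below are CPM scaled by the trimmed mean of M-values (TMM), a factor computed over all features, which was 1.153 to 1.198 in *rrp4-G226D* libraries and 0.8209 to 0.878 in *RRP4* libraries. Because these factors separated the genotypes, the choice of scale moved every difference: the median log2 fold change of all tested features was 0.01 with TMM and 0.46 with library totals alone. The faint SUTs stood 0.37 above that median on the log2 scale under both. *RRP4* itself was measured at 299, 281 and 301 normalised CPM in *rrp4-G226D* cells, against 178, 167 and 165 in *RRP4* cells, and since reads of either allele are counted together, this level is no check of the labels. The replicates are described by the study as independent, and p-values set the difference between genotypes against the variation among these libraries. In bulk cultures, fewer cells with an RNA and less of it per cell cannot be told apart.

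The faint SUTs together drew 12435, 12985 and 15605 reads in the *rrp4-G226D* libraries, against 6791, 7486 and 5667 reads in the *RRP4* libraries. As a share of all counts this was 0.131% ± 0.00241 in *rrp4-G226D* cells and 0.0707% ± 0.00322 in *RRP4* cells (SD, n = 3 each). On the TMM scale the summed level was 1119 ± 28.6 CPM in *rrp4-G226D* cells and 825 ± 15.5 CPM in *RRP4* cells. Libraries of the genotypes did not overlap on either scale, and *rrp4-G226D* stood at 1.85 times the share and 1.36 times the summed normalised level. These sums describe RNAs selected on their *RRP4* levels and are given without a test.

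A typical faint SUT rested on few reads. The median member had 31, 32 and 38 reads in the *rrp4-G226D* libraries, against 19, 20 and 15 in the *RRP4* libraries. Fewer than 10 reads were counted for 29, 25 and 14 members in the *rrp4-G226D* libraries and for 68, 53 and 88 members in the *RRP4* libraries. No member was at 0 in a *rrp4-G226D* library, and 3 members were at 0 in 1 *RRP4* library (Xu_2009_SUTs305, Xu_2009_SUTs516 and Xu_2009_SUTs796). Summed over all libraries, the reads of a member ranged from 31 to 568 with a median of 159. In *rrp4-G226D* cells, 135 members averaged at least 4 CPM by library total and 204 stayed below that level.

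**Figure D1:**
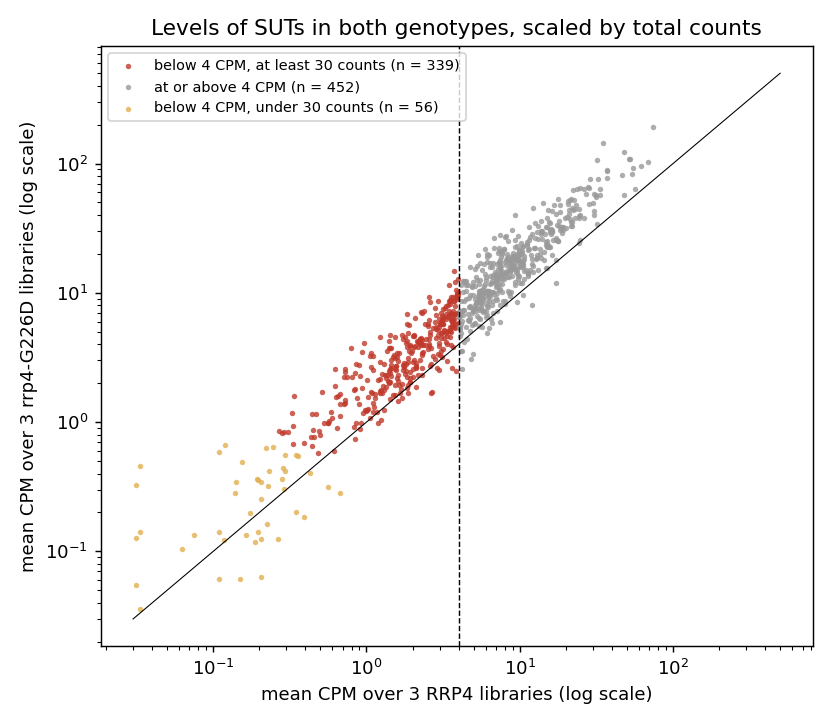
Mean CPM by library total of each SUT in rrp4-G226D libraries (vertical axis) against RRP4 libraries (horizontal axis), both on log scales, with faint SUTs, SUTs at or above 4 CPM and SUTs with fewer than 30 reads in separate colours. The 11 SUTs with no read in a genotype, none of them a faint SUT, cannot be drawn on log axes. The faint SUTs fill the strip left of 4 CPM because that is how they were chosen.

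The limits of the rule cut through a continuum. The members just inside 4 CPM were Xu_2009_SUTs693 (3.960 CPM, log2 fold change 0.81), Xu_2009_SUTs585 (3.943 CPM, -0.01) and Xu_2009_SUTs195 (3.942 CPM, 0.12). Those just outside were Xu_2009_SUTs296 (4.002 CPM, 0.25), Xu_2009_SUTs771 (4.010 CPM, 0.02) and Xu_2009_SUTs293 (4.022 CPM, 0.24). At the other limit, Xu_2009_SUTs285, Xu_2009_SUTs127 and Xu_2009_SUTs230 had 31, 32 and 32 reads and were kept, while Xu_2009_SUTs118, Xu_2009_SUTs8 and Xu_2009_SUTs396 had 29, 28 and 28 reads and were not.

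Of the 339 faint SUTs, 309 passed the edgeR filter on low counts, and the other 30 were all under 1 CPM in *RRP4* cells. With a call defined as a fold change of at least 1.5 and a Benjamini-Hochberg adjusted p below 0.05 over all 7631 tested features, 84 of the 309 were increased in *rrp4-G226D* cells, beside 12.7% of all features. Decreased calls numbered 6, beside 11.3% of all features. The median log2 fold change was 0.38, with the middle range of members from 0.02 to 0.75 and the extremes at -1.09 and 1.84. Because the choice used the *RRP4* libraries of this same comparison, and a SUT that was low there by chance would also look increased, these counts are a description only. Without the filter, when every member could be fitted, 82 of 339 were increased and 5 decreased, with the same median of 0.38. In that fit 11.4% of all features were increased and 10.1% decreased.

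The separation of single libraries also differed from member to member. In 118 of the 309 fitted members, every *rrp4-G226D* library was higher than every *RRP4* library, beside 31.3% of all features. In 14 members every one was lower, beside 32.8% of all features. The groups overlapped in the other 177. Increases of at least 2-fold were fitted for 38 members, each of them called, while 15 members with a fitted increase of at least 1.5-fold were not called.

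The changes can be set out by level in *RRP4* cells, as a description, since that level was used by the rule and is also the denominator of the fold change. In the unfiltered fit, 11.4% of all features were increased and 10.1% decreased. The 62 members under 1 CPM had a median log2 fold change of 0.63 and 15 increased calls (24.2%). Members so low in *RRP4* cells reach 30 reads in all mostly through *rrp4-G226D* reads. The 113 members from 1 to under 2 CPM had a median of 0.23 and 22 increased calls (19.5%). The 75 members from 2 to under 3 CPM had a median of 0.38 with 17 increased (22.7%) and 2 decreased (2.67%) calls. The 89 members from 3 to under 4 CPM had a median of 0.42, with 28 increased (31.5%) and 3 decreased (3.37%) calls. The median standard error fell along the same steps, at 0.46, 0.33, 0.26 and 0.21.

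**Figure D2:**
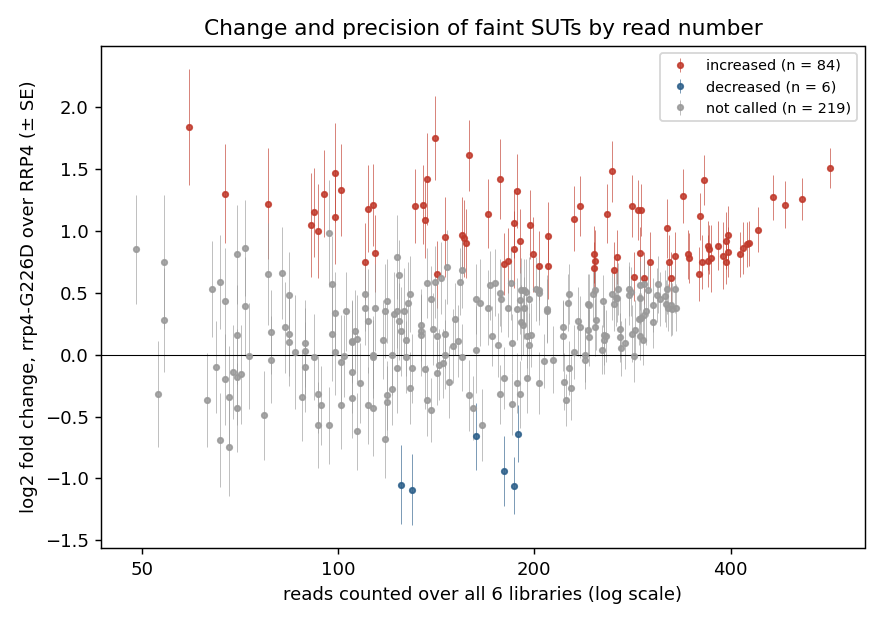
Log2 fold change (rrp4-G226D over RRP4, edgeR with TMM) of each of the 309 tested faint SUTs against its reads summed over 6 libraries (log axis), with bars of ± 1 SE and calls in separate colours. No member had more than 114 reads over the RRP4 libraries, a number that the rule keeps low. The points at the right end of the axis therefore had to be higher in rrp4-G226D cells.

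A choice that leaves libraries free for testing was made by taking SUTs below 4 CPM with at least 5 reads in 1 *RRP4* library alone, and then fitting genotype in the other 5 libraries. The choice in *RRP4* library 1 took 336 SUTs, of which 316 were tested, 71 were increased (22.5%) and 7 decreased (2.22%), beside 12.0% and 11.2% of all features in that fit. The choice in library 2 took 327 SUTs, of which 310 were tested, 69 were increased (22.3%) and 5 decreased (1.61%), beside 11.5% and 11.1% of all features. The choice in library 3 took 290 SUTs, of which 284 were tested, 67 were increased (23.6%) and 6 decreased (2.11%), beside 12.1% and 11.2% of all features. The median log2 fold changes were 0.35, 0.33 and 0.33, where the median of all features was 0.01 in each fit.

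In these fits, faint SUTs were thus called increased at a higher rate than all features and called decreased at a lower one. Fitted in the same sets of 5 libraries, the 339 members gave 23.8%, 23.4% and 24.9% increased, beside 12.0%, 11.5% and 12.1% of all features. They were chosen on all 3 *RRP4* libraries, so these shares are a description and not held out. DESeq2, as an alternative test, called fewer: 45 of the chosen SUTs with an adjusted p for library 1 (13.9%), 46 for library 2 (14.3%) and 48 for library 3 (16.7%), beside 9.83%, 9.23% and 10.1% of all features. It called 5, 4 and 3 decreased, beside 10.5%, 10.1% and 10.6% of all features. Over all 6 libraries DESeq2 called 72 of the 339 members increased, beside 10.9% of all features, and 4 decreased, beside 10.6%. The 3 fits share the *rrp4-G226D* libraries and most of the *RRP4* libraries and are not independent of each other. The SUTs chosen were mostly the members: 310, 299 and 280 of them belonged to the 339. A core of 242 SUTs was chosen in every *RRP4* library, 238 of them were tested in all 3 fits, and 37 were increased in all 3. Each fit of this core used *RRP4* libraries that had helped to choose it, so the 37 are a description. The matching number over all features was not computed. The level of a SUT chosen on the *rrp4-G226D* side gave a different picture. Of 209 SUTs with a mean below 4 CPM in *rrp4-G226D* cells and at least 30 reads, 179 were tested, with a median of 0.13. Of these, 24 were increased (13.4%) and 11 decreased (6.15%), beside 12.7% and 11.3% of all features. With the mean of all 6 libraries as the criterion, 217 of 247 SUTs were tested, with a median of 0.21. Of these, 40 were increased (18.4%) and 10 decreased (4.61%), beside the same shares of all features. The count of increased SUTs thus moved with the libraries used to call a SUT faint. Choosing by the *rrp4-G226D* libraries gave a share increased close to that of all features. That choice and the choice by all 6 libraries used libraries that the fit compares. A SUT low by chance in the *rrp4-G226D* libraries would also look decreased, so these shares and medians are a description only. The median was above 0 under each choice.

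**Figure D3:**
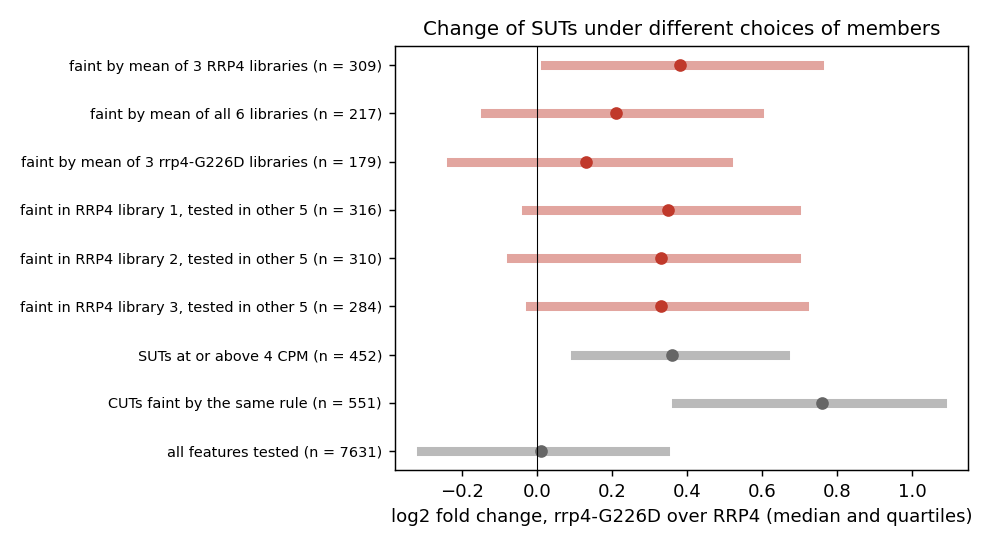
Median (point) and quartiles (bar) of the log2 fold change, rrp4-G226D over RRP4, among tested features for each way of choosing faint SUTs (red), and for SUTs at or above 4 CPM, CUTs selected by the same rule and all features (grey), with the number tested beside each name. The choices in 1 RRP4 library have medians of 0.35, 0.33 and 0.33, below that by the mean of the RRP4 libraries (0.38) and above that by the rrp4-G226D libraries (0.13).

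The files give each SUT a number but no coordinates, length or strand. The rows of the tables follow the genome, however: all 6031 neighbouring pairs of annotated features on a chromosome stood in ascending order of their RefSeq R64 start, so each SUT can be placed between the annotated genes around its row. The numbers are not those of the 9 SUT entries in RefSeq, as the SUT listed under each of those numbers lay on another chromosome. With no lengths, read levels are not compared between SUTs as abundances. The members below were named by fixed rules, the highest fold changes first. Members named for a high or low fold change were ranked on all 6 libraries. Their p-values in the held-out fits of 5 libraries therefore describe them and are no separate test.

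Xu_2009_SUTs351 was listed on chromosome VIII between *KSP1*, which encodes a protein kinase, and *SAM35*, which encodes a component of the mitochondrial sorting and assembly machinery. Its start lies between the gene starts at 268459 and 272627. It had 2.68, 3.96 and 2.99 normalised CPM in *rrp4-G226D* cells, against 0.606, 1.41 and 0.743 in *RRP4* cells. The groups did not overlap, and the log2 fold change was 1.75 ± 0.34 (SE). In the fits of 5 libraries, with the SUT chosen in the library left out, it was increased in each, with edgeR adjusted p of 0.00277, 3.18e-04 and 0.00184.

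Xu_2009_SUTs355, also on chromosome VIII, was listed between *HXT1* and *HXT5*, genes for a low-affinity and a moderate-affinity hexose transporter. It had 3.24, 3.20 and 4.13 normalised CPM in *rrp4-G226D* cells, against 1.21, 1.30 and 0.892 in *RRP4* cells, a log2 fold change of 1.61 ± 0.29. All *rrp4-G226D* libraries were above all *RRP4* libraries, and the held-out edgeR adjusted p-values were 7.35e-04, 8.13e-04 and 0.00112. Neither transporter gene passed the fold threshold, with log2 fold changes of -0.23 for *HXT1* and 0.04 for *HXT5*.

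Xu_2009_SUTs171 had more reads than any other member, 568 in all. It was listed on chromosome IX between *KTR7*, a mannosyltransferase gene, and *SDS3*, which encodes a subunit of the Rpd3 histone deacetylase complex, and starts between 200490 and 202276. Its level was 12.2, 12.8 and 12.6 normalised CPM in *rrp4-G226D* cells, against 5.21, 4.23 and 3.72 in *RRP4* cells, a log2 fold change of 1.51 ± 0.16. The groups were far apart relative to their spread, while both neighbouring genes were close to 0 (-0.04 and 0.12). It was below 4 CPM in *RRP4* libraries 2 and 3 and not in library 1, and the fits without those libraries gave log2 fold changes of 1.47 and 1.41 (edgeR adjusted p of 8.66e-06 and 2.58e-06).

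Xu_2009_SUTs144 lay on chromosome IV between the divergent genes *EMI2*, a paralog of the glucokinase gene *GLK1*, and *GRH1*, which encodes a Golgi-associated protein. It had 5.37, 6.58 and 5.48 normalised CPM in *rrp4-G226D* cells, against 1.57, 1.73 and 3.12 in *RRP4* cells, a log2 fold change of 1.48 ± 0.25. *RRP4* library 3 was the highest of its group and still below every *rrp4-G226D* library. Beside it, *EMI2* decreased by 0.97 on the log2 scale, so the SUT and this neighbour moved in opposite directions.

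Xu_2009_SUTs186 was listed on chromosome IX between YIR018C-A and *FLO11*, which encodes a cell-surface flocculin. *FLO11* lies on the minus strand from 389572 to 393675, so the SUT starts on its 3′ side and not at its promoter. The SUT had 7.40, 8.01 and 8.33 normalised CPM in *rrp4-G226D* cells, against 2.42, 3.25 and 3.27 in *RRP4* cells, a log2 fold change of 1.41 ± 0.20. The groups did not overlap, and the held-out edgeR adjusted p-values ran from 2.78e-05 to 7.71e-05. *FLO11* was itself increased (log2 fold change 0.97 ± 0.12, edgeR adjusted p 2.18e-06). How strand was set when reads were counted is not given in the sources used here, so reads of a SUT and of a gene that overlaps it cannot be told apart. How this SUT relates to *FLO11* was not tested.

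The other members of the 8 highest were fainter or more variable. Xu_2009_SUTs276 had 2.13, 2.36 and 2.07 normalised CPM in *rrp4-G226D* cells, against 0.969, 1.08 and 0.149 in *RRP4* cells (log2 fold change 1.47 ± 0.40), and the lowest *RRP4* value was 1 read. Xu_2009_SUTs680, between the siderophore transporter gene *ENB1* and the isomaltase gene *IMA2*, had 3.52, 2.28 and 3.21 in *rrp4-G226D* cells, against 0.484, 1.84 and 0.892 in *RRP4* cells (1.42 ± 0.37). Xu_2009_SUTs147 had 3.15, 5.48 and 3.06 in *rrp4-G226D* cells, against 1.70, 1.41 and 1.19 in *RRP4* cells (1.42 ± 0.32). In each of these the groups stayed apart, but the standard errors were above those of the members with more reads.

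Among members picked for the most normalised reads in *rrp4-G226D* cells, beside Xu_2009_SUTs171, Xu_2009_SUTs165 had 9.25, 12.7 and 10.9 normalised CPM in *rrp4-G226D* cells, against 4.84, 4.34 and 4.61 in *RRP4* cells (log2 fold change 1.26 ± 0.17). It was listed between *POR2*, a gene for a mitochondrial porin, and the stress-inducible phosphatase gene *SDP1*. Xu_2009_SUTs111, Xu_2009_SUTs104, Xu_2009_SUTs637 and Xu_2009_SUTs347 had log2 fold changes of 1.21 ± 0.19, 1.27 ± 0.18, 1.01 ± 0.18 and 0.90 ± 0.18. Their levels ran from 7.76 to 12.7 normalised CPM in *rrp4-G226D* cells, against 3.12 to 5.10 in *RRP4* cells. Xu_2009_SUTs347 lay next to *NOP10*, which encodes an H/ACA snoRNP protein and decreased by 0.59 on the log2 scale, and Xu_2009_SUTs637 next to the aminopeptidase gene *LAP3*, which decreased by 0.60. Being chosen for a high *rrp4-G226D* level and a low *RRP4* level, these 6 were bound to lie at the upper end.

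**Figure D4:**
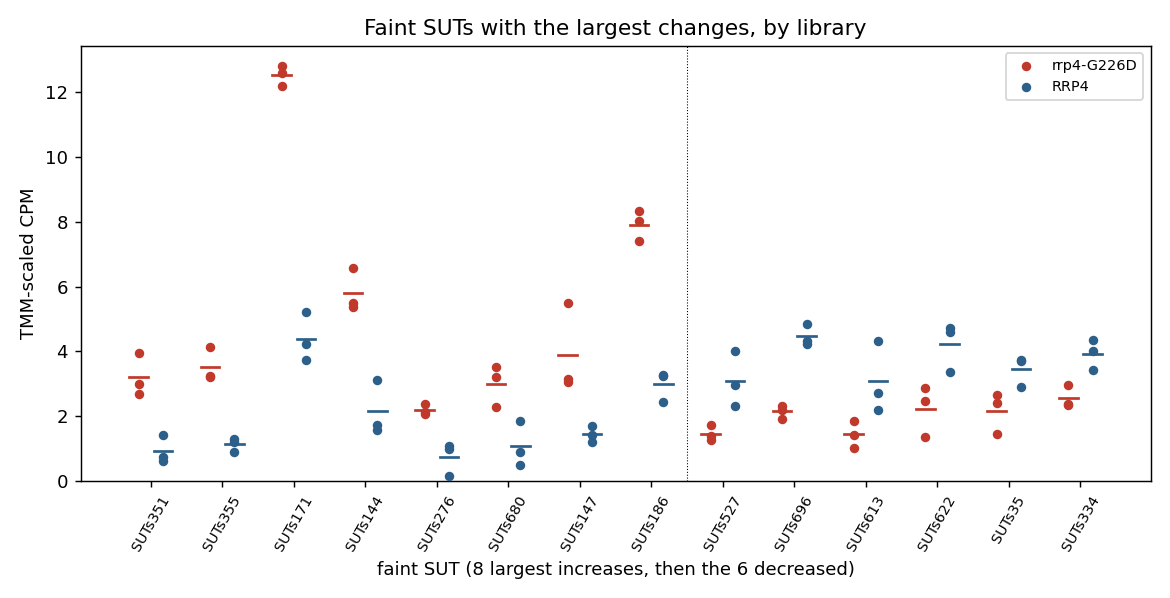
Normalised CPM (TMM scale, linear axis) of faint SUTs in each rrp4-G226D library (red) and each RRP4 library (blue), 1 point per library with a line at the mean of each genotype, for the 8 highest fold changes among members with at least 60 reads and then, right of the dotted line, the 6 decreased members. The genotypes do not overlap in any of them.

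Of the 309 tested members, 236 had a positive log2 fold change (76.4%), beside 50.8% of all features. The 6 members called decreased lay at the low end of the spread. With library totals alone all 6 still had a negative log2 fold change, and Xu_2009_SUTs696 (-0.61) was the 1 member called decreased. Xu_2009_SUTs696 was the steadiest of them, at 2.31, 2.19 and 1.92 normalised CPM in *rrp4-G226D* cells, against 4.84, 4.23 and 4.31 in *RRP4* cells (log2 fold change -1.06 ± 0.23). It was chosen in each *RRP4* library, and it was also decreased in each of the held-out fits, with edgeR adjusted p of 0.00459, 0.00270 and 0.00219. It was listed on chromosome XV between *PHO80*, the cyclin of phosphate signalling, and *RRP6*, the gene of the nuclear exosome exonuclease, with a start between 325249 and 326832. *RRP6* did not pass the threshold, at 90.4 ± 5.20 normalised CPM in *rrp4-G226D* cells and 96.7 ± 3.04 in *RRP4* cells (SD, n = 3 each, log2 fold change -0.10, edgeR adjusted p 0.206).

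Xu_2009_SUTs527, between *APC2* of the anaphase-promoting complex and *DCN1* of the neddylation pathway, had 1.39, 1.26 and 1.71 normalised CPM in *rrp4-G226D* cells, against 2.30, 4.01 and 2.97 in *RRP4* cells (-1.09 ± 0.29). Without *RRP4* replicate 2 its log2 fold change was -0.83 and the call was lost. Xu_2009_SUTs613, between *ECM5* and the mitochondrial metal transporter gene *MMT1*, had 1.02, 1.85 and 1.42 in *rrp4-G226D* cells, against 2.18, 2.71 and 4.31 in *RRP4* cells (-1.05 ± 0.32), and lost its call without *RRP4* replicate 3 (-0.77). Xu_2009_SUTs622 had 2.87, 2.45 and 1.35 in *rrp4-G226D* cells, against 4.72, 3.36 and 4.61 in *RRP4* cells (-0.94 ± 0.28), and its neighbour *HOR7*, an osmotic stress-responsive gene, decreased by 0.85. The groups did not overlap in any of these 3.

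The remaining 2 decreased calls were the least secure. Xu_2009_SUTs35 had 2.41, 1.43 and 2.64 normalised CPM in *rrp4-G226D* cells, against 2.91, 3.69 and 3.72 in *RRP4* cells (-0.66 ± 0.27), and its call was lost without *RRP4* replicate 2 (-0.59), *RRP4* replicate 3 (-0.61), *rrp4-G226D* replicate 1 (-0.73) or *rrp4-G226D* replicate 2 (-0.45). Xu_2009_SUTs334, named after its values were seen to complete the 6, had 32, 28 and 33 reads in *rrp4-G226D* libraries, against 33, 40 and 23 reads in *RRP4* libraries, before scaling (-0.64 ± 0.23). It lost its call without *RRP4* replicate 1 (-0.63), *RRP4* replicate 2 (-0.55), *rrp4-G226D* replicate 2 (-0.60) or *rrp4-G226D* replicate 3 (-0.58). The low end of the ranking also held Xu_2009_SUTs336 (-0.75 ± 0.39) and Xu_2009_SUTs565 (-0.69 ± 0.38), neither called, which were listed next to the ribosomal protein genes *RPL14B* and *RPL6B*. Those genes decreased by 0.84 and 0.78 on the log2 scale. Xu_2009_SUTs52 (-0.68 ± 0.32) was not called either, but was called without *RRP4* replicate 3 (-0.87) or *rrp4-G226D* replicate 1 (-0.98).

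Among members with at least 120 reads, those nearest 0 on the TMM scale were named too. Xu_2009_SUTs321 had 2.78, 2.70 and 1.85 normalised CPM in *rrp4-G226D* cells, against 2.30, 2.06 and 2.97 in *RRP4* cells (log2 fold change 0.00 ± 0.28), with overlapping groups. Its neighbours, the proteasome subunit gene *PUP2* and the enolase gene *ENO1*, decreased by 0.71 and 0.72. Xu_2009_SUTs481 was also at 0.00 (SE 0.22) beside *RGT1*, the glucose-responsive repressor gene, which increased by 0.76. The others nearest 0 were Xu_2009_SUTs25 (-0.00 ± 0.33), Xu_2009_SUTs585 (-0.01 ± 0.21) and Xu_2009_SUTs307 (-0.02 ± 0.27). With library totals alone, where the median over all features is 0.46, the log2 fold changes of these 5 were 0.43 to 0.45.

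The faint SUTs were spread over every nuclear chromosome, from 10 of 39 SUTs on chromosome IX (25.6%) to 41 of 88 on chromosome XVI (46.6%). By chromosome, the tested members called increased ranged from none of 3 on chromosome I and none of 7 on chromosome III to 15 of 32 on chromosome IV. The median log2 fold change ranged from 0.17 on chromosome XII (27 tested) to 0.73 on chromosome IX (9 tested, 4 increased). Over all chromosomes 12.7% of all features were increased, and the shares of all features by chromosome are not given here. These are counts without a test.

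The genes on either side of a faint SUT pointed away from each other in 117 of 339 cases (34.5%), in the same direction in 198 (58.4%) and towards each other in 24 (7.08%). Among SUTs at or above 4 CPM the same arrangements made up 28.8%, 61.3% and 9.96% of 452. The row before or after belonged to another CUT or SUT for 130 faint SUTs (38.3%), against 33.8% of the SUTs at or above 4 CPM. For members between divergent genes the median log2 fold change was 0.43, with 32 of 110 tested called increased (29.1%). Those between tandem genes had a median of 0.38 with 48 of 178 increased (27.0%) and 5 decreased, and those between convergent genes 0.17 with 4 of 21 increased. Over all features tested, 12.7% were increased and 11.3% decreased. The share of members increased thus differed little between divergent and tandem genes, and the convergent set was small.

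Of 536 genes next to tested members, 28 were increased (5.22%), beside 12.7% of all features. Decreased calls numbered 84, beside 11.3% of all features, and the median log2 fold change of these genes was -0.12. All features include the SUTs and CUTs, many of them called increased, whereas these neighbours are annotated genes. The shares and median over annotated genes alone were not computed. Whether genes beside faint SUTs differ from other genes was therefore not tested. Across 284 members with both neighbours tested, the change of the SUT and the mean change of its neighbours had a Spearman rho of 0.13, which is a description over points that share the same libraries and sometimes the same genes.

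The CUTs that the same rule selects, 643 of 925, were taken as the set to compare with. Of 551 tested, 301 were increased (54.6%) and 1 decreased (0.181%), beside 12.7% and 11.3% of all features. Their median log2 fold change was 0.76, at the same median standard error as the faint SUTs (0.28). The held-out choice gave 255 of 557, 237 of 561 and 241 of 504 tested CUTs increased (45.8%, 42.2% and 47.8%), with medians of 0.74, 0.71 and 0.73. In those fits 12.0%, 11.5% and 12.1% of all features were increased. The SUTs at or above 4 CPM were close to the faint ones, with a median of 0.36, at a median standard error of 0.14. Of these 452, 142 were increased (31.4%) and 12 decreased (2.65%), beside 12.7% and 11.3% of all features.

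Ratios of reads within a library do not depend on the scale between libraries. The reads on faint SUTs came to 51.3%, 53.9% and 51.1% of those on the faint CUTs in *rrp4-G226D* cells, against 63.4%, 68.3% and 66.5% in *RRP4* cells. Both sets were chosen on these *RRP4* libraries and on a minimum of 30 reads over all libraries, which the scarcest RNAs can reach through *rrp4-G226D* reads, so this ratio is a description. Choosing the sets in 1 *RRP4* library leaves the others free, although so few libraries cannot give an exact two-sided permutation p below 0.1. With both sets chosen in *RRP4* library 1 alone, the ratio was 52.7%, 55.5% and 52.2% in *rrp4-G226D* cells, against 70.5% and 69.6% in the other *RRP4* libraries. The choice in library 2 gave 51.4%, 53.8% and 51.8% against 65.7% and 68.6%, and the choice in library 3 gave 49.6%, 52.3% and 49.5% against 62.7% and 67.3%. In each of these 3 choices, which share libraries, the ratio of faint SUT to faint CUT reads was lower in every *rrp4-G226D* library than in the *RRP4* libraries not used to choose. Relative to the SUTs at or above 4 CPM the ratio was 13.4%, 12.8% and 12.8% in *rrp4-G226D* cells, against 13.1%, 13.2% and 13.4% in *RRP4* cells, and the groups overlapped. With the sets chosen in *RRP4* library 1 alone it was 13.8%, 13.3% and 13.2% in *rrp4-G226D* cells, against 14.1% and 14.4% in the other *RRP4* libraries, in library 2 alone 12.8% to 13.3% against 13.7% and 14.0%, and in library 3 alone 11.6%, 11.1% and 11.2% against 11.7% and 11.9%. In these choices every *rrp4-G226D* library was below the *RRP4* libraries that had not chosen the sets, by a small margin.

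**Figure D5:**
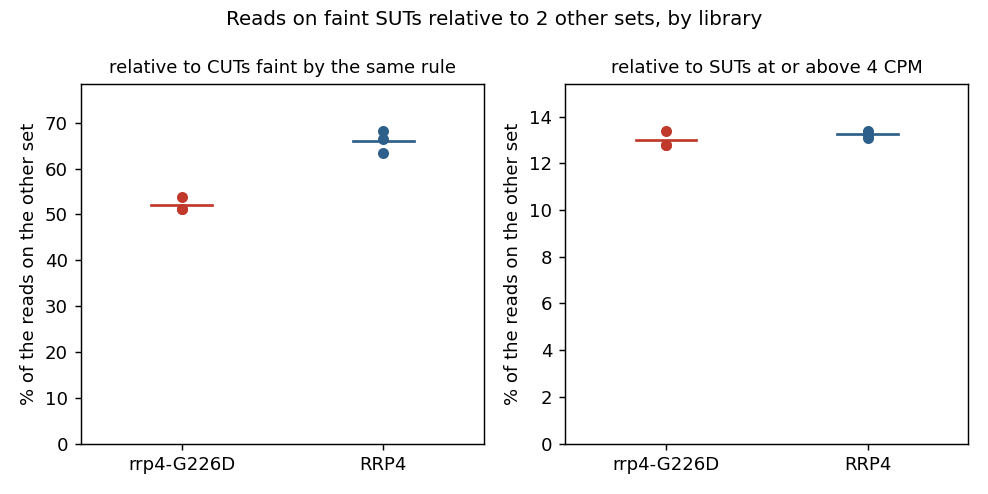
Reads on faint SUTs as a percentage of the reads on CUTs selected by the same rule (left) and on SUTs at or above 4 CPM (right), 1 point per library with a line at the group mean. The left ratio is 51.1% to 53.9% in rrp4-G226D libraries and 63.4% to 68.3% in RRP4 libraries, and the right ratio, 12.8% to 13.4% against 13.1% to 13.4%, overlaps for these sets, which were chosen on all RRP4 libraries.

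The machinery that degrades SUTs was read in the same fit from a list of 39 genes, of which 4 were increased and 1 decreased (median log2 fold change 0.12), beside the shares of all features given above. All 3 genes of the Nrd1-Nab3-Sen1 complex were increased: *NRD1*, which encodes its RNA-binding subunit with a polymerase tail-interacting domain, had 531 ± 34.0 normalised CPM in *rrp4-G226D* cells and 283 ± 22.0 in *RRP4* cells, *NAB3*, its other RNA-binding subunit, 598 ± 49.6 and 373 ± 8.56, and the helicase gene *SEN1* 366 ± 11.2 and 243 ± 6.14 (SD, n = 3 each). *SEN1* was near the fold threshold (log2 fold change 0.59) and fell under it without *RRP4* replicate 3 (0.56), *rrp4-G226D* replicate 2 (0.57) or *rrp4-G226D* replicate 3 (0.56).

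Of 13 nuclear exosome genes, the plasmid-borne *RRP4* was the one increased (294 ± 11.1 normalised CPM in *rrp4-G226D* cells and 170 ± 7.10 in *RRP4* cells, SD, n = 3 each, log2 fold change 0.79 ± 0.06), and the median of the 13 was -0.00. None of the 5 TRAMP genes, the 4 Ski complex genes, the 4 nonsense-mediated decay genes or the 2 nuclear 5′ to 3′ decay genes was called. Among 8 genes of cytoplasmic decapping and 5′ to 3′ decay, the scavenger decapping gene *DCS1* was decreased, at 82.2, 71.7 and 58.8 normalised CPM in *rrp4-G226D* cells, against 103, 121 and 115 in *RRP4* cells (log2 fold change -0.68 ± 0.09, edgeR adjusted p 8.26e-06). Without *rrp4-G226D* replicate 3 its log2 fold change was -0.56 and it was no longer called. With library totals alone, where the median over all features was 0.46, 17 of the 39 were increased and none decreased. The directions of genes near 0 thus depend on the scale.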

How the data were processed

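Total RNA of 6 yeast cultures was sequenced from stranded libraries. Per the submitters' processing notes, the authors demultiplexed reads with bcl2fastq 2.17, aligned them with STAR to the R64 genome and deposited raw counts per feature from featureCounts 1.6.4, 1 table per library. A table of the authors' own DESeq2 comparison (fold changes and p-values) was not used. Of 8898 features, those passing edgeR's filterByExpr were fitted with edgeR 4.0.16 (R 4.3.3), TMM factors and the quasi-likelihood test on genotype, with Benjamini-Hochberg adjustment over all features tested. SE of a log2 fold change comes from this fit. Calls need an adjusted p below 0.05 and a fold of at least 1.5. Standard errors, and not binomial intervals, give the precision, and read totals per library are in the text. Members, lists and tests were chosen with earlier results of these data known. Named members were the 8 highest and 8 lowest fold changes among tested members with at least 60 reads, the 6 highest *rrp4-G226D* levels, the 3 nearest each side of both limits, and the 5 changes nearest 0 with at least 120 reads. Sequence and gene positions came from RefSeq R64. Alternatives were DESeq2 1.42.0, other scalings, filters, fold limits and membership rules, a replicate block, and leaving out each library. The fits were tested on simulated data.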

Additional observations from a re-analysis of the deposited data

How the results depend on the processing

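The 84 increased and 6 decreased members and their median log2 fold change of 0.38 depended most on scaling, fold limit and membership. With library totals alone there were 195 increased and 1 decreased with a median of 0.83, the held-out counts were 164, 163 and 158, and of the decay genes 17 were increased and 0 decreased. All features moved up on that scale, to a median of 0.46, and the members stood 0.37 above it. TMM over open reading frames gave a median of 0.46, where that of all features was 0.09. With a fold of at least 2 there were 38 increased and 3 decreased, and glmTreat against 1.5-fold gave 19 and 0. The shares of all features called with library totals, at 2-fold or by glmTreat are not given here. Faintness by all 6 libraries gave 40 increased, 10 decreased and a median of 0.21, faintness by *rrp4-G226D* libraries 24, 11 and 0.13, a limit of 2 CPM 39 and 0, and a limit of 6 CPM 11 decreased. These membership rules share the main fit, in which 12.7% of all features were increased and 11.3% decreased. DESeq2 called 72 members increased, all among the 84, and 45, 46 and 48 of the SUTs chosen in *RRP4* library 1, 2 and 3, against 71, 69 and 67 with edgeR. Leaving out each library gave 72 to 82 increased, 3 to 7 decreased (3 without *RRP4* replicate 2) and medians of 0.36 to 0.39, with 54 members increased in every such fit, and 3 to 4 decay genes increased and 0 to 2 decreased. Same-numbered samples did not deviate together (Pearson r over 7631 features 0.0241, 0.073 and -0.0682), so the numbers do not pair the samples. The replicate block called 84 increased, 82 of them shared, and 6 decreased, with a median of 0.38, and 66, 61 and 65 in the held-out fits. No SUT or decay gene named as increased or decreased changed direction under any alternative run. Their neighbouring genes were not followed through the alternatives. The causes of these movements were not tested, and leaving out further libraries in the held-out fits was not run. With a median of 15 to 38 reads per library, small changes of single faint SUTs were not detectable at this depth.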
